A study of Mus musculus with 3 samples.

Results

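The genes Calb2, Tac2, Igfbpl1 and Sema3c were followed through single cells of the mouse dentate gyrus, the hippocampal region in which new granule neurons are made in adult life. They are 4 of the 15535 genes listed in at least 1 of the 3 count tables. They were chosen because earlier results on these libraries showed them in cells with the immature-neuron gene Sox11 and with different levels between groups, so their levels and differences are given as a description, with no test. The runner library came from mice of 8 weeks that had a running wheel for 12 days, the aged library from mice of 14 months without a wheel, and the control library from littermates of the runners, at 8 weeks, in standard housing. The sample labels give hGFAP-eGFP, a reporter line for the glial gene GFAP, as the strain of all 3, while the series' design text describes the young mice as wild type and gives the reporter with the 14-month group. Each group is 1 library from dissociated whole dentate gyrus, and the number of mice behind it is not given, so no difference between groups has a replicate check and intervals cover counting error only.

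New granule neurons in the adult mouse pass through stages that can be read from their genes. Intermediate progenitors express Eomes and Neurog2 and divide, neuroblasts and immature neurons express Sox11, Dcx and Neurod1, and calretinin is present for a limited time after the last division before calbindin, encoded by Calb1, takes its place in mature granule neurons. Calb2 encodes calretinin, a calcium-binding protein with EF-hand domains that is also found in Cajal-Retzius cells and in some inhibitory neurons. Tac2 encodes the precursor of neurokinin B, a tachykinin peptide that acts on the receptor encoded by Tacr3. Sema3c encodes a secreted class 3 semaphorin, a guidance cue read by neuropilin and plexin receptors, and Igfbpl1 encodes a secreted protein related to the insulin-like growth factor binding proteins.

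All 4 are protein-coding genes. In the GENCODE annotation of the build GRCm38, Calb2 lies at chr8:110137502-110168210 on the minus strand, Tac2 at chr10:127724478-127731768 on the plus strand, Igfbpl1 at chr4:45809468-45826923 on the minus strand and Sema3c at chr5:17574281-17730268 on the plus strand. The RefSeq promoter table (GRCm38.p6) held 2 of the 4, Tac2 and Sema3c. They are shown because both genes were detected in the same immature cells, which also express the basic helix-loop-helix factor Neurod1. Each window runs from 250 bases before to 50 bases after the start site. Capitals mark matches to CANNTG, the E-box letters read by such factors, for which both strands were searched.
Tac2, chr10:127724228-127724527, plus strand: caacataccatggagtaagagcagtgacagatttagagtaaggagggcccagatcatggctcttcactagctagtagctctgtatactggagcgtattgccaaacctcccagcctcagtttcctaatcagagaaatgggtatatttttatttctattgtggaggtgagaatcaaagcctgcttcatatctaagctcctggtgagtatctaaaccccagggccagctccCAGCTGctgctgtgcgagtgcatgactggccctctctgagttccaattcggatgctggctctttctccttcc
Sema3c, chr5:17574566-17574865, plus strand: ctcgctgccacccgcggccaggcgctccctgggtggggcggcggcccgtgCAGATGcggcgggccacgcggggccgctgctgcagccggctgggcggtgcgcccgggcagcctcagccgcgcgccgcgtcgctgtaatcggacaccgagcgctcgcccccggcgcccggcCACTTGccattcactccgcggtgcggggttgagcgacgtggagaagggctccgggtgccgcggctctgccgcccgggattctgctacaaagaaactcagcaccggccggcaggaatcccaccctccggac

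The Tac2 window holds 1 match, which begins 22 bases before the start site. The Sema3c window holds 2, which begin 200 and 80 bases before it. CANNTG is common: 72.3% of the 32851 promoter windows in the table hold it on either strand. The exact letters of the Tac2 match occur in 16.3% of the windows, and those of the first Sema3c match in 17.2%. The matches describe these letters and not binding sites.

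Transcripts were counted as unique molecular identifiers (UMIs), 1 per captured RNA molecule, and levels are given as CPM, the UMIs of a gene over summed cells scaled to a total of 1000000. The filter kept barcodes with at least 200 genes and a mitochondrially encoded share under 10%, which left 969 runner, 393 aged and 514 control cells with median depths of 1754, 1413 and 1457 UMIs. Cells were clustered without the 4 genes and classes were named from other markers. Of the barcode sequences, 8 to 10 occurred in both libraries of a pair before filtering, and 2 pairs of used cells, in the runner and aged libraries, shared one. The immature-neuron-like class, 1 cluster led by Sox11, Nnat, Neurod1, Tubb3, Cd24a and Dcx, held 173 runner cells, 12 aged cells and 33 control cells. These are 17.9% of the runner cells (exact 95% interval 15.5 to 20.4), 3.05% of the aged cells (1.59 to 5.27) and 6.42% of the control cells (4.46 to 8.90). Tac2 and Igfbpl1 are not listed in the aged table, in which no listed gene has UMIs in fewer than 3 barcodes, so no aged value is given for them.

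Almost all transcripts of the 4 genes in the runner library lay in the immature-neuron-like class. The class held 93.4% of the 649 Calb2 UMIs, 99.2% of the 474 Tac2 UMIs, 96.6% of the 174 Igfbpl1 UMIs and 98.2% of the 222 Sema3c UMIs of the runner cells used. In the aged library it held 10 of 14 Calb2 UMIs and 6 of 7 Sema3c UMIs. In the control library it held 11 of 27 Calb2 UMIs, 5 of 6 Tac2 UMIs, all 15 Igfbpl1 UMIs and 10 of 16 Sema3c UMIs. Most UMIs of all 4 thus lay in this class in the runner library, while most control Calb2 lay elsewhere. Because the 4 were chosen for their presence in Sox11-positive cells, this placement is a description and not a check of the label.

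**Figure D1:**
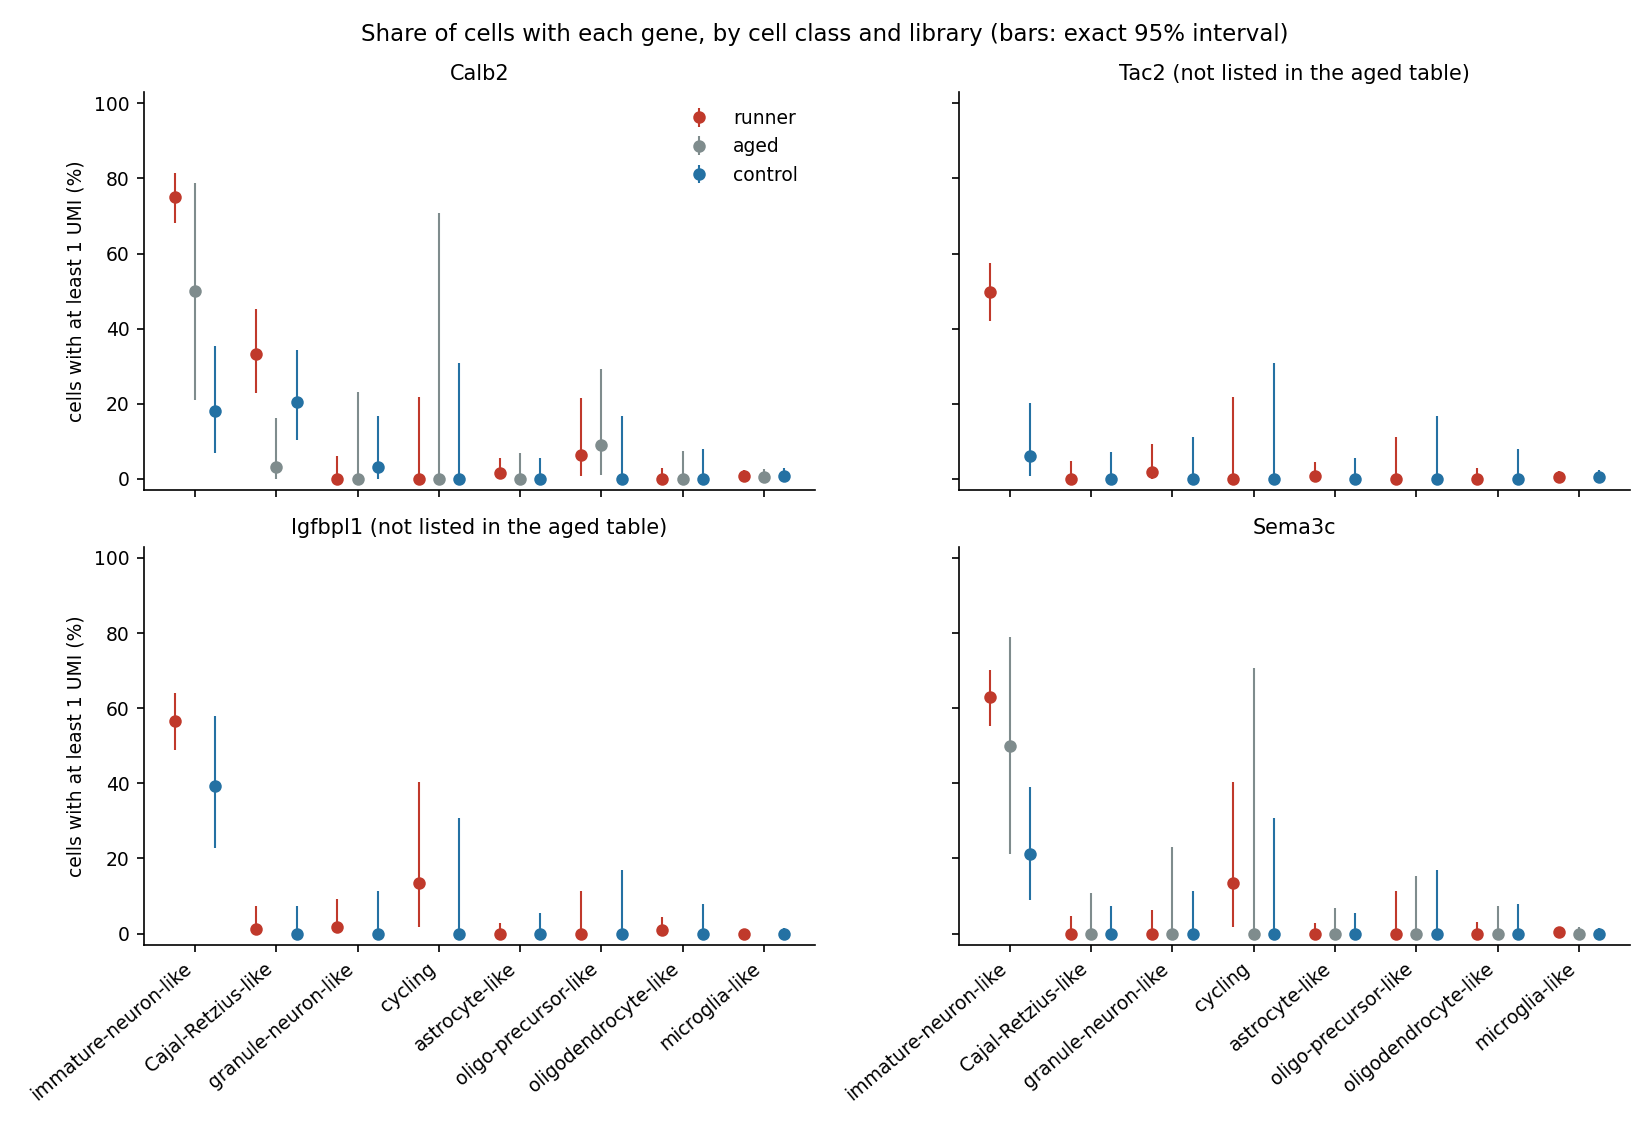
Share of cells with at least 1 UMI of each gene (y axis, percent) in the larger cell classes (x axis), for runner, aged and control cells from left to right, with exact 95% intervals. The runner immature-neuron-like cells stand highest for every gene, at 75.1%, 49.7%, 56.6% and 63.0% for Calb2, Tac2, Igfbpl1 and Sema3c, and Calb2 is also seen in Cajal-Retzius-like cells, at 33.3% in runner.

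Calb2 had a second site. Cajal-Retzius-like cells, a cluster led by Ndnf, Reln and Lhx1os among others, carried Calb2 in 25 of 75 runner cells (33.3%), 1 of 32 aged cells (3.12%) and 10 of 49 control cells (20.4%). Their summed Calb2 level was 277 CPM in runner, 21.5 CPM in aged and 212 CPM in control. The ratio of runner to control was 1.30 (95% interval 0.676 to 2.68), which includes no difference, and that of aged to control was 0.101 (0.00238 to 0.674), resting on 1 aged UMI against 13 control UMIs. Among the 811 genes with at least 20 UMIs over both libraries in this class, 8.51% were at least 2-fold lower in aged than in control. Calb2 was below that minimum and is not among them. The other 3 genes were near absent here, with no Tac2 or Sema3c UMI in any library that lists them and 1 Igfbpl1 UMI in runner cells.

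Of the 10 genes of the Cajal-Retzius marker list, 3 were detected in the 130 Calb2-positive runner cells of the immature class. The summed level of the list was 214 CPM in those cells, higher than the 89.9 CPM in the Calb2-negative cells. Reln, Trp73, Lhx1, Lhx5 and Ndnf were among the list genes at 0 in the positive cells. Granule-neuron-like cells were named from markers of granule and other mature glutamatergic neurons, and 14 of the 58 runner cells held Sox11. They carried Calb2 in 0 of 58 runner cells, 0 of 14 aged cells and 1 of 31 control cells. A count of 0 of 58 allows a share of cells with a UMI of up to 5.17%, counting error only, by a limit of 3 cells. Microglia-like cells, which should lack all 4 genes, give the level of stray RNA. Calb2 had a UMI in 3 of 354 runner, 1 of 201 aged and 2 of 244 control microglia-like cells, Tac2 in 2 runner and 1 control cells, Sema3c in 1 runner cell and Igfbpl1 in none. Median depths there were 1583, 1408 and 1477 UMIs in runner, aged and control, against 1979, 1451 and 1378 UMIs in the immature class. Sema3c was also found in endothelial-like cells, in 4 of 16 control cells and 1 of 2 aged cells, while the runner library held only 1 such cell. Igfbpl1 and Sema3c were each found in 2 of 15 runner cycling cells.

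Within the immature-neuron-like class, Calb2, the calretinin gene, was detected in 130 of 173 runner cells (75.1%, interval 68.0 to 81.4), 6 of 12 aged cells (50%, 21.1 to 78.9) and, in control, 6 of 33 (18.2%, 6.98 to 35.5). The runner cells held up to 19 Calb2 UMIs, and 49 of them held 5 or more, while no aged cell exceeded 2 and no control cell exceeded 3. The summed level was 1749 CPM in runner, 539 CPM in aged and 243 CPM in control. Runner was 7.19-fold control (3.99 to 14.5). Aged was 2.21-fold control (0.843 to 5.74), an interval that includes no difference. By share of cells, aged lay 31.8 percentage points above control (2.34 to 58.2), on 12 aged and 33 control cells before thinning. The intervals of the runner and aged shares overlapped, and the interval of the control share lay below that of runner.

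Tac2, the neurokinin B gene, was detected in 49.7% of the runner cells (86 of 173, interval 42.0 to 57.4), against 6.06% of the control cells (2 of 33, 0.743 to 20.2). A runner cell held up to 20 Tac2 UMIs, 40 runner cells held 5 or more, and the highest control cell held 4. The level was 1357 CPM in runner and 111 CPM in control, a ratio of 12.3 (5.22 to 37.9) that rests on 5 control UMIs. Among positive runner cells the median was 4 Tac2 UMIs, against 3 for Calb2, 2 for Sema3c and 1 for Igfbpl1. Tac2 thus had the most UMIs per positive cell of the 4, although the fewest runner cells held it.

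Sema3c, the semaphorin gene, was detected in 109 of 173 runner cells (63.0%, 55.3 to 70.2), 6 of 12 aged cells (50%, 21.1 to 78.9) and, in control, 7 of 33 (21.2%, 8.98 to 38.9). The level was 629 CPM in runner, 323 CPM in aged and 221 CPM in control. Runner was 2.84-fold control (1.52 to 6.01), and aged was 1.46-fold control (0.436 to 4.44), which includes no difference. Most positive cells of each library held 1 or a few UMIs, with a maximum of 6 in runner, 1 in aged and 2 in control.

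Igfbpl1 had the lowest runner to control ratio of the 4. Its share was 56.6% in runner (98 of 173 cells, interval 48.9 to 64.1) and 39.4% in control (13 of 33 cells, 22.9 to 57.9). The level was 485 CPM in runner and 332 CPM in control, a ratio of 1.46 (0.861 to 2.67) whose interval includes no difference. No cell of either library held more than 5 UMIs.

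**Figure D2:**
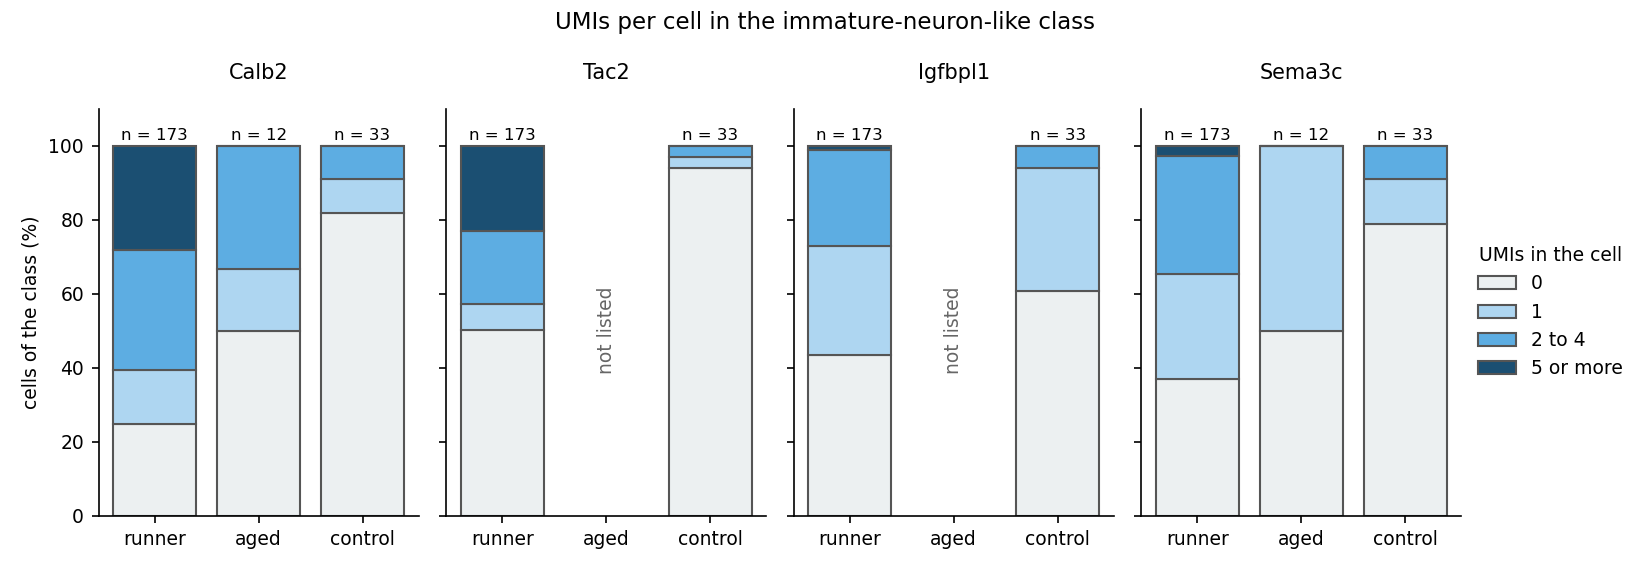
Stacked bars of the percentage of immature-neuron-like cells (y axis) by number of UMIs of each gene, for runner, aged and control from left to right, with the number of cells above each bar. Cells with 5 or more UMIs are frequent in runner for Calb2 (49 cells) and Tac2 (40 cells) and none occurs in control.

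Runner cells of the class were deeper, so every cell was also thinned to 1000 UMIs, which left out 4 runner, 2 aged and 6 control cells. Calb2 was then detected in 65.7% of runner, 30.0% of aged and 11.1% of control cells, while the Tac2 shares were 45.0% in runner and 7.41% in control. Those of Sema3c were 50.9% in runner, 30.0% in aged and 18.5% in control. For Igfbpl1 the shares were 36.7% in runner and 37.0% in control, so its unthinned gap of 17.3 percentage points (interval −1.24 to 33.6) was −0.351 points at equal depth.

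In the immature class, 3 of the 4 genes, all but Igfbpl1, were at least 2-fold higher in runner than in control, where 16.6% of the 3246 genes compared were. None was at least 2-fold lower, where 5.21% of those genes were. Over all cells used, all 4 passed that fold, where 6.6% of 10662 genes did, with 360 against 34.9 CPM for Calb2, 263 against 7.76 CPM for Tac2, 96.6 against 19.4 CPM for Igfbpl1 and 123 against 20.7 CPM for Sema3c in runner against control. These shares of all genes stand beside the counts only, since the choice of the 4 used the same contrast. In aged cells the whole-library level was 23.0 CPM for Calb2 and 11.5 CPM for Sema3c, which gives ratios of aged to control of 0.660 (0.320 to 1.30) and 0.557 (0.194 to 1.43), both including no difference. The mitochondrial limit moved some of these values: on the log2 scale the runner to control ratio of Calb2 was 3.37 and, without the limit, 2.67, while that of Sema3c was 2.57 and, at a limit of 5%, 3.19. At that limit of 5% the aged to control ratio of Sema3c was 0.0334 on the log2 scale, against −0.84 at 10%.

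Whole-library UMIs per cell depend on the size of the class, the UMIs in its cells and the UMIs outside it. Per 100 cells, the runner library had 67.0 Calb2 UMIs and control had 5.25, a 12.8-fold difference. The class took a 2.78-fold larger share of the runner cells, and each class cell held 3.50 Calb2 UMIs in runner against 0.333 in control, 10.5-fold more. The product of these folds is above the whole-library fold, where 93.4% of runner but 40.7% of control Calb2 UMIs lay in the class. For Tac2, class cells held 2.72 against 0.152 UMIs in runner and control, 17.9-fold more, for Sema3c 1.26 against 0.303, 4.16-fold more, and for Igfbpl1 0.971 against 0.455, 2.14-fold more. UMIs per cell carry the difference in depth, and the number of cells captured per mouse is not known.

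Other genes of the same stage differed in both directions between runner and control. In the immature class, Sox11 was at 2910 CPM in runner and 3607 CPM in control, a ratio of 0.807 (0.683 to 0.958). Dcx, a microtubule protein of migrating neurons, had a ratio of 1.10 (0.698 to 1.82), Neurod1 of 0.848 (0.632 to 1.16), Tubb3, a neuronal tubulin, of 1.13 (0.837 to 1.56) and Prox1, the granule neuron factor, of 0.867 (0.580 to 1.34). Neurod2, a factor of later neurons, had 86 runner UMIs and 1 control UMI, a ratio of 11.2 (1.96 to 448). Of the leading genes of the class, Nnat had a ratio of 1.86 (1.49 to 2.33), Cd24a of 1.72 (1.10 to 2.82) and Stmn1, a tubulin-binding protein, of 1.51 (1.28 to 1.81), all with intervals above 1. Chl1, a cell adhesion gene of growing axons, had 108 runner UMIs and 6 control UMIs, a ratio of 2.35 (1.04 to 6.54). Of the 12 measured genes of the later neuroblast list, 1 was at least 2-fold higher in runner and 0 were lower, with a median log2 ratio of −0.22. Of the 6 measured genes of the early list, 0 passed in either direction, with a median of −0.31. Of all 3246 genes compared in the class, 16.6% were at least 2-fold higher and 5.21% at least 2-fold lower, with a median of −0.02. Sox11, Nnat, Neurod1, Tubb3, Cd24a, Stmn1 and Dcx were also among the 10 leading genes of the class.

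**Figure D3:**
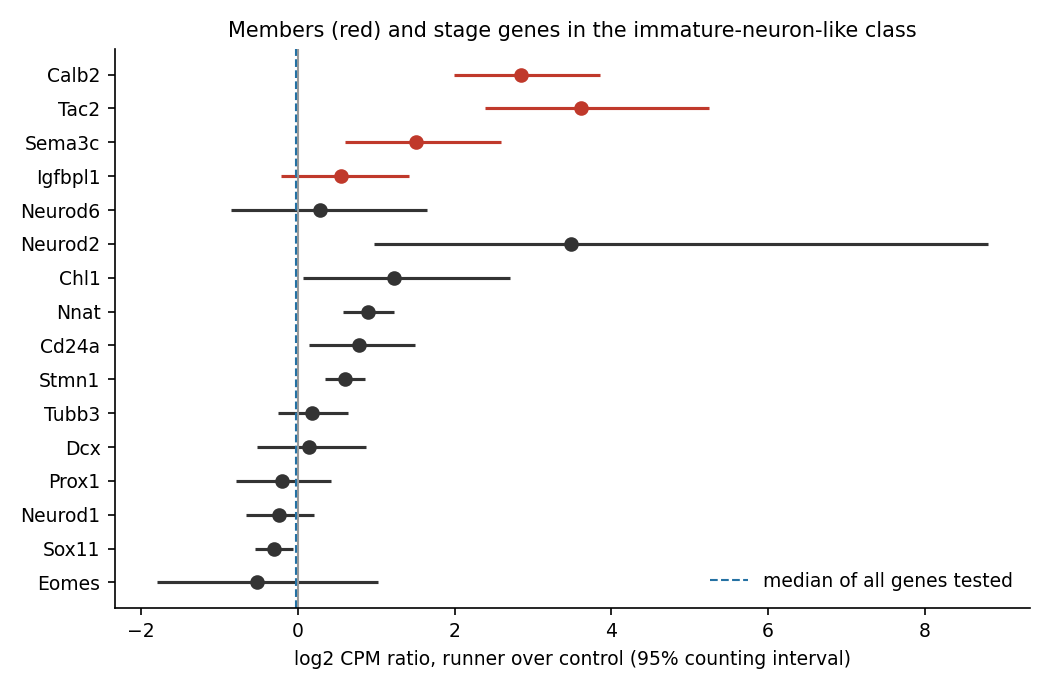
Log2 CPM ratio of runner over control (x axis) in the immature-neuron-like class for the 4 genes (red) and stage genes (black), with 95% counting intervals. Calb2 at 2.84, Tac2 at 3.62 and Sema3c at 1.51 lie to the right of 0 with their whole interval, as do Nnat, Cd24a, Stmn1, Chl1 and Neurod2, while the intervals of Igfbpl1, Dcx, Neurod1, Prox1 and Tubb3 include 0.

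The 4 genes were next counted together in single cells with at least 1 Sox11 UMI, of which there were 215 in runner, 26 in aged and 53 in control. Of these, 169 runner, 11 aged and 31 control cells belonged to the immature class. In runner cells, 54 held none of the 4 genes, 23 held 1, 44 held 2, 63 held 3 and 31 held all 4. In aged cells, where 2 of the 4 are listed, 18 held none, 4 held 1 and 4 held both. In control cells, 34 held none, 11 held 1, 7 held 2, 1 held 3 and 0 held all 4. Cells with at least 2 of the genes were 64.2% of runner and 15.1% of control Sox11-positive cells. After thinning they were 55.2% of runner and 6.98% of control Sox11-positive cells. Median depth was 2066 UMIs in runner, 1700 in aged and 1576 in control Sox11-positive cells.

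Calb2 and Tac2 occurred together in 75 runner Sox11-positive cells, where the product of their shares gives 50.8, and 89.3% of the Tac2-positive cells held Calb2. Among Calb2-positive cells, 57.7% held Tac2, against 10.6% of the Calb2-negative ones. Of the runner Sox11-positive cells, 46 lay outside the immature class, so the pairs were also counted inside it. There, Calb2 and Tac2 occurred together in 77 cells against a product of 64.6 (odds ratio 5.49), and after thinning in 61 against 49.9 (odds ratio 3.50). Calb2 and Sema3c occurred together in 93 cells against 81.9 (odds ratio 4.24), and after thinning in 66 against 56.5 (odds ratio 2.79). Tac2 and Sema3c had an odds ratio of 1.98, and 1.67 after thinning.

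Igfbpl1 met the other genes more often than the product of their shares over all runner Sox11-positive cells. It met Calb2 in 79 cells against 61.1 (odds ratio 4.44, and 2.05 after thinning), Tac2 in 51 against 39.5 (2.50, and 2.34 after thinning) and Sema3c in 64 against 51.2 (2.65, and 1.26 after thinning). Inside the class the counts lay nearer to the product, with 79 against 73.6 for Calb2 (odds ratio 1.96), 51 against 48.7 for Tac2 (1.24) and 63 against 61.7 for Sema3c (1.13). After thinning, the odds ratios inside the class were 1.03 with Calb2, 1.38 with Tac2 and 0.696 with Sema3c. All 4 genes met in 31 cells of the class against a product of 23.1, and after thinning in 11 against 9.32. In aged Sox11-positive cells, Calb2 and Sema3c met in 4 of 26 cells, where the product gives 1.38 and 6 cells held each gene. Of those 26 cells, 15 lay outside the immature class. Inside the aged class the pair met in 4 of 12 cells against a product of 3. In control Sox11-positive cells, Calb2 and Tac2 met in 0 of 53 cells, where 6 cells held Calb2 and 2 held Tac2.

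The Calb2-positive and Calb2-negative runner cells of the immature class differed in stage genes. The 130 positive and 43 negative cells had median depths of 1987.5 and 1954 UMIs. Sox11 was at 2957 CPM in positive and 2774 CPM in negative cells, a ratio of 1.07 (0.922 to 1.24). Positive cells held more Neurod1, at 1166 against 427 CPM (2.73-fold, interval 1.94 to 3.93), and more Prox1, at 626 against 281 CPM (2.23-fold, 1.46 to 3.54). Chl1 had 107 UMIs in positive and 1 in negative cells, and Neurod6, a factor of postmitotic excitatory neurons, had 64 and 1. Neurod2 was 9.57-fold higher (3.16 to 47.3) and Tac2 4.73-fold higher (3.30 to 7.01) in positive cells.

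Genes of dividing progenitors were lower in the Calb2-positive cells. Pclaf, a replication factor, had 0 UMIs in positive and 24 in negative cells, which by a floor of 3 UMIs over the positive cells puts it at least 23.1-fold lower. Ccnd2, a G1 cyclin, was at 198 against 1786 CPM (ratio 0.111, 0.0793 to 0.153), and Eomes at 38.9 against 247 CPM (ratio 0.157, 0.0665 to 0.346). Neurog2 had 3 UMIs in positive and 17 in negative cells, a ratio of 0.0610 (0.0115 to 0.211). Hmgn2 and Hmgb2, chromatin proteins abundant in dividing cells, had ratios of 0.174 and 0.163. Of the 12 measured genes of the later list, 7 were at least 2-fold higher and 0 lower in positive cells (median log2 ratio 1.15), where 9.94% of all 2898 genes were that much higher. Of the 6 measured genes of the early list, 0 were higher and 2 lower (median −0.43), where 6.8% of all genes were that much lower. The median over all genes was −0.04.

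Marker transcripts of other cells differed across this split in both directions. The summed level of the 11 microglia markers was 334 CPM in positive and 1393 CPM in negative cells, with all 11 detected in both, and that of the 13 astrocyte markers was 855 CPM in positive cells, with all 13 detected, and 1101 CPM in negative cells, with 11 detected. Cycling markers were at 198 CPM in positive and 921 CPM in negative cells. Markers of oligodendrocytes were at 435 CPM in positive and 348 CPM in negative cells, and those of mature glutamatergic neurons at 1294 CPM in positive and 517 CPM in negative cells. Their part in the differences was not tested. After thinning, where the split was 111 positive and 58 negative cells, the fold of Chl1 was 6.53 (2.40 to 24.9) instead of 37.0 and that of Neurod6 was 2.82 (1.07 to 9.38) instead of 22.1. Neurod2 was 5.05-fold higher (1.57 to 25.9), Tac2 2.69-fold (1.92 to 3.83), Ccnd2 had a ratio of 0.151 and Eomes of 0.0402 after thinning.

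The same runner cells were also split by each of the other 3 genes, which gave ratios nearer to 1 for Neurod2 and Eomes. The 109 Sema3c-positive cells, against 64 negative cells, held 75 Neurod2 UMIs against 11, a 3.98-fold higher level, and 3.64-fold more Neurod6 (1.78 to 8.36), with Eomes at a ratio of 0.351 (0.156 to 0.753) and Neurog2 at 0.103 (0.0194 to 0.357). The 86 Tac2-positive cells, against 87 negative cells, had Neurod1 at a ratio of 1.51 (1.21 to 1.88) and Neurog2 at 0.114 (0.0128 to 0.476). For Neurod2, Neurod6 and Eomes the Tac2 split gave ratios of 0.851 (0.542 to 1.33), 1.20 (0.714 to 2.02) and 1.03 (0.480 to 2.19), whose intervals include no difference. The 98 Igfbpl1-positive cells, against 75 negative cells, had Neurod1 at 1.41 (1.12 to 1.78) and Neurog2 at 0.252 (0.0717 to 0.729). For Prox1 the interval was 0.742 to 1.36, and Neurod2 stood at 1.16 (0.736 to 1.84) and Eomes at 0.972 (0.457 to 2.11) in the Igfbpl1 split. Neurog2, the progenitor factor, was thus lower in the cells positive for each of the 4 genes, on 20 UMIs in all. The 4 splits share their cells and are not separate observations. Neurog2 stood at 371 CPM in the 16 cells with none of the 4 genes. It stood at 31.5, 35.2, 16.1 and 0 CPM in cells with 1, 2, 3 and 4 of them.

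**Figure D4:**
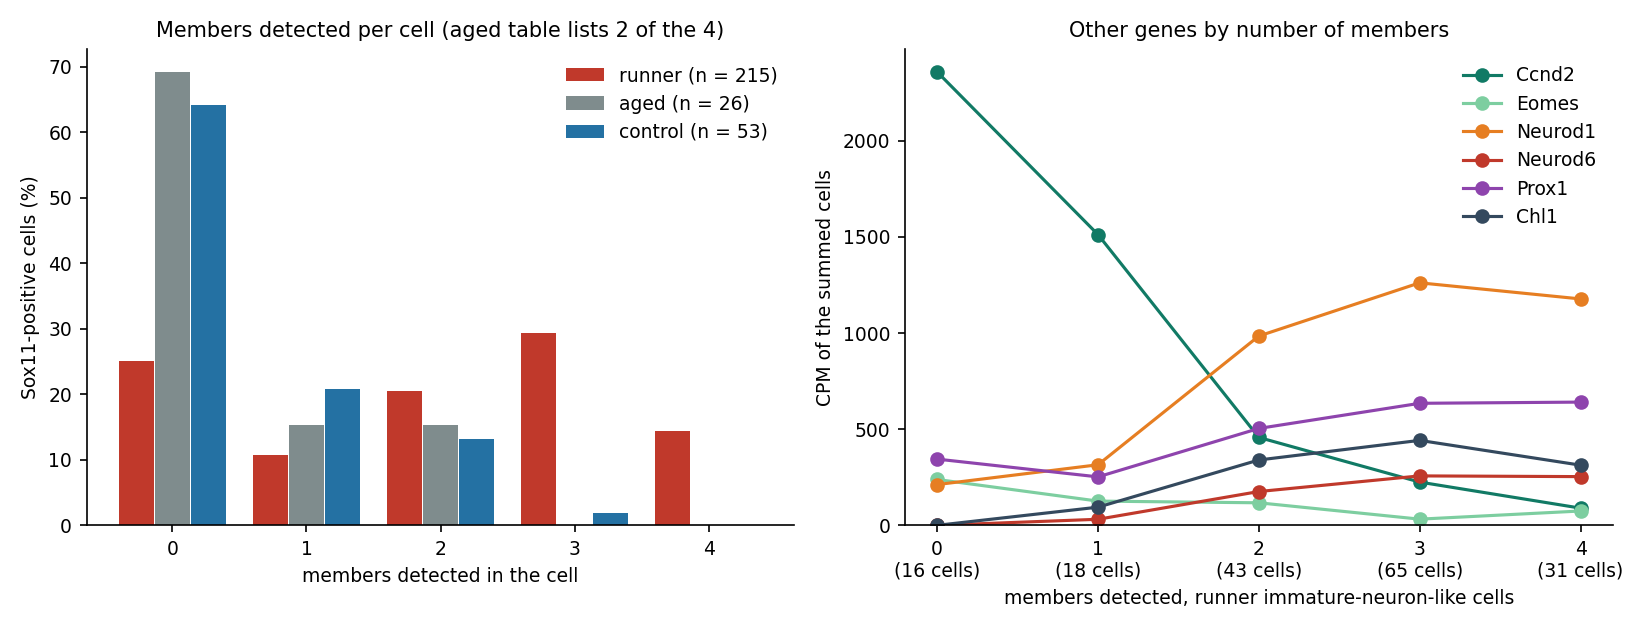
Left, percentage of Sox11-positive cells (y axis) by number of the 4 genes detected, for runner, aged and control from left to right, where the aged table lists 2 of the 4. Right, CPM of other genes in runner immature-neuron-like cells summed by number of the 4 genes detected, in which Ccnd2 is highest at 0 genes (2358 CPM) and Neurod1 at 3 (1261 CPM).

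The same genes were then followed with runner immature cells grouped by how many of the 4 genes they held. Ccnd2 was at 2358, 1512, 457, 225 and 89.4 CPM in cells with 0, 1, 2, 3 and 4 of them, and Neurod1 at 212, 315, 984, 1261 and 1177 CPM. Prox1 was at 344, 252, 504, 635 and 641 CPM. The first 2 groups hold 16 and 18 cells, and from 2 to 4 genes, in groups of 43, 65 and 31 cells, Ccnd2 was lower with each further gene, while Neurod1 and Prox1 were higher at 4 than at 2. Median depth ran from 1732 to 2216 UMIs without following the order of the groups. The part of depth within a group was not tested.

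Over runner Sox11-positive cells of any class, 46 of 215 of which lay outside the immature class, the split by Calb2 was led partly by other genes. The highest in the Calb2-positive cells were Neurod6, Tac2, Cd24a, Gm17750, Chl1, Sema3c, Tubb3, Neurod1, Nnat and Tubb2b. Among the lowest were Pclaf, Cenpa, Cldn11, Ptk2b, Nrgn, Trf, Olig1, Cnp and Cryab, of which Cldn11, Trf, Olig1, Cnp and Cryab are genes of the oligodendrocyte lineage.

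Genes of the same pathways had few UMIs in the same cells. Of the tachykinin list of 6 genes, Tac1 and Tac2 are listed, and Tac1 had no UMI in the immature class, while Tac4 and the receptor genes Tacr1, Tacr2 and Tacr3 are listed in no table. Of the 14 genes of the class 3 semaphorin and receptor list, 11 are listed. Plxna2, a plexin, had 40 UMIs in 35 runner cells of the immature class, 1 in aged and 1 in control cells, and the neuropilin gene Nrp1 had 25, 1 and 5. As CPM, Plxna2 stood at 115, 53.9 and 22.1 and Nrp1 at 72.2, 53.9 and 111 in runner, aged and control. In the runner class, Plxna2 was 6.57-fold higher in Calb2-positive than in Calb2-negative cells (1.70 to 56.2). Of the 12 genes of the insulin-like growth factor list, Igf1r, the receptor gene, had 23 UMIs in runner, 0 in aged and 8 in control class cells. Its level was 66.4 CPM in runner and 177 CPM in control, so it was lower in runner, on 8 control UMIs. Calb1, which encodes calbindin, had no UMI in the class in any library and its highest class was granule-neuron-like cells.

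Inhibitory neurons that express calretinin could also hold Calb2. Gad1 or Gad2, the enzymes of GABA synthesis, had a UMI in 36 of the 1876 cells used (1.92%). The share was 2.09% of the 191 Calb2-positive cells, 2.15% of the 93 Tac2-positive, 1.72% of the 116 Igfbpl1-positive and 1.54% of the 130 Sema3c-positive cells, each close to that of all cells. Of the 14 inhibitory neuron markers, 7 were detected in the Calb2-positive runner immature cells, at a summed 245 CPM, and 5 in the negative ones, at 168 CPM. Gad1, Gad2, Sst and Cnr1 were detected in the 130 positive cells and were at 0 in the 43 negative cells, while Slc32a1, Vip, Pvalb, Dlx2 and Lhx6 were at 0 in both. The part of such cells in the results was not tested.

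The genes whose levels ran most closely with each member were found by Pearson correlation of log2(CPM + 20) over sums of a class in a library, each of at least 10 cells, among 7870 genes with at least 50 UMIs. There were 25 such sums for Calb2 and Sema3c, and 18 for Tac2 and Igfbpl1, without the aged library. The sums share libraries and depth, and the values are a description with no test. For Calb2 they were Cd24a (0.916), Plppr3 (0.820), Tubb3 (0.819), Zfp354c (0.806) and Gsk3b (0.798). For Tac2 they were Igfbpl1 (0.887), Neurod6 (0.866), Rwdd3 (0.801), Scrt2 (0.790) and Mturn (0.777). Igfbpl1 ran with Scrt2 (0.945), Sstr2 (0.916), Tac2 (0.887), Neurod1 (0.864) and Rps26 (0.857), and Sema3c with Neurod6 (0.924), Gm9844 (0.839), Fam60a (0.822), Rpl15 (0.801) and H3f3a (0.799). Neurod6 is thus on the lists of Tac2 and Sema3c, and Scrt2, a zinc finger factor of newly formed neurons, on those of Tac2 and Igfbpl1.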

How the data were processed

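Per the labels, dentate gyrus of hGFAP-eGFP mice was dissociated with trypsin and profiled with 10x Genomics Chromium 3′ v2 chemistry, with no sort described. The submitters' processing notes name Cell Ranger 2.1.1, Seurat 3.1.0 and the build GRCm38. The counts are whole UMIs per gene symbol and barcode, not normalized, in 1 table the authors deposited for each library. No listed gene had UMIs in fewer than 3 barcodes, so a missing gene is called not listed.

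Cells passed 200 genes and under 10% mitochondrially encoded UMIs. Scrublet called 10 of 1876 cells as doublets, which were kept. With the 4 genes left out, cells were clustered on 2000 variable genes, 30 components and 15 neighbours by Leiden at resolution 1.0 (Scanpy 1.11.5, leidenalg 0.10.2, seed 1). A cluster took a name from markers of a list if at least 3 were detected in 25% of its cells and at least 2-fold up, with 1 among its 10 leading genes; these thresholds follow an earlier analysis of these data. Shares have exact Clopper-Pearson 95% intervals, differences of shares Newcombe intervals, and CPM ratios exact conditional binomial intervals (SciPy 1.17.1). All cover counting error only. Folds count as past 2 among genes with at least 20 UMIs; list medians add 0.5 UMIs. TMM factors came from edgeR 4.0.16. The calculations were tested on simulated data. The genes named are the 4, Sox11, list genes with their counts, the 5 most similar genes of each member, and the 10 highest and lowest genes between Calb2-positive and Calb2-negative cells, of which 1 is not reported here. The members and lists were chosen with earlier results of these data known. Only 1 library stands for each group, so no test between groups was run.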

Additional observations from a re-analysis of the deposited data

Results flagged for a closer look

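Of the runner barcodes outside the filter, 3.26% had a Calb2 UMI (77 of 2359), against 2.44% in control (45 of 1842), a difference within counting error. Tac2 was found in 0.509% of those runner barcodes and 0.109% of the control ones. Igfbpl1 was found in 0.678% and 0.271%, and Sema3c in 0.848% and 0.597%, of the runner and control barcodes outside the filter. In runner each of the 4 genes stood above the control library there, with overlapping intervals of the shares for each, which does not show that the shares are equal. Their levels there were 44.9 against 30.2 CPM for Calb2 and 10.5 against 1.28 CPM for Tac2 in runner against control. For Igfbpl1 they were 12.5 against 3.21 CPM, and for Sema3c 16.9 against 8.99 CPM. In the aged barcodes outside the filter, Calb2 was found in 2.42%, close to the control share. Sema3c was found in 0.197% of them, below the control share but with overlapping intervals. Such barcodes take no part in the comparisons, except under settings with a higher mitochondrial limit or none.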

How the results depend on the processing

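No paired analysis was possible because each group is 1 library and carries only the replicate number 1. For the same reason no replicate could be left out. Under other settings, 197 values were compared, for groups, gene pairs or shares of all genes. Of these, 184 stayed within the limits set around the value reported, 9 moved beyond them and 4 changed sign, with the cause not tested. Some settings left the immature class almost as it was, so little movement was possible under them. At resolution 0.5 it again held 173 runner, 12 aged and 33 control cells, and at resolution 2.0 it held 172, 12 and 33. The limits were the counting interval, except for the shares of all genes, which had a fixed fold around the reported share. Counting intervals are wide where cells are few, as in the aged class. The log2 ratio of runner to control over the cells used was 2.67 for Calb2 without a mitochondrial limit, and that of aged to control was 0.0334 for Sema3c at a limit of 5%. With at least 2 Sox11 UMIs per cell, the aged minus control differences were 35.7 points for Calb2 and 40 points for Sema3c, on 10 aged cells. The runner minus control difference of Tac2 was then 42.5 points, and 43.2 points with Dcx in place of Sox11, where the CPM ratio of Tac2 had no value because control cells held none. Joint detection of Calb2 with Sema3c at 2 Sox11 UMIs had a log2 of observed over product of 0.21. Thinning brought the runner minus control difference of Igfbpl1 to 6.74 points in Sox11-positive cells and −0.351 points in the class. The log2 of observed over product for Igfbpl1 with Sema3c in the class was −0.17 after thinning and −0.0408 when classes were called per cell. With a minimum of 50 UMIs, 4.36% of all genes were at least 2-fold higher in runner over the cells used and 9.06% in the class. Of 50 shares by library, 7 moved beyond their interval, all without the mitochondrial limit. The counts inside the class by gene pair and by Calb2, their thinned values, and reclustering without Scrublet calls were chosen after seeing the data. The aged class holds 12 cells, which limits every aged value.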
